A study of Mus musculus with 8 samples.

Results

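The genes described here encode the machinery that fills, docks, fuses and retrieves synaptic vesicles. The set of 42 was listed by name, with earlier results of these data known. It covers synapsins, vesicle membrane proteins, SNARE proteins and their regulators, active zone scaffolds and endocytic proteins. It was matched by symbol to 42 of the 54446 rows of a count table. All 42 passed the filter on low counts, among 17395 genes tested. RNA-seq was done on mice, with 4 samples of wild-type genotype (WT, replicates 1 to 4) and 4 samples homozygous for Scn2agt/gt (HOM, replicates 1 to 4), WT littermates and homozygotes being bred from heterozygous pairs. The gt allele is a gene trap, a cassette inserted into Scn2a, which encodes the neuronal sodium channel NaV1.2. It is a germline change present in every cell and is not limited to one neuron type. The strain is written C75BL6 in the labels and the series title calls the mice adult, with no age or sex given for a sample. No drug or stimulus is listed. The cell type is given as neuron, and no brain region is named. The labels do not state whether the numbered samples are different mice. The p-values therefore cover the spread between samples alone, and that spread may be technical.

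At a nerve terminal, synapsins tether vesicles in a reserve cluster, the active zone scaffold docks them opposite calcium channels, and Munc13 proteins (genes Unc13a to Unc13c) prime them for release. Calcium entering with an action potential binds synaptotagmins, which together with complexins trigger the SNARE proteins to fuse vesicle and plasma membrane. NSF and its SNAP adaptors then pull the spent SNARE complexes apart, and endocytic proteins recover the membrane for another round. NaV1.2 sits upstream of all this, since it carries sodium current in the axon and contributes to the action potentials that reach the terminals.

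Total counts lay between 27993412 and 37538988 per library, and the 42 genes had between 768 and 82770 counts each in a library. Levels are given as CPM, counts scaled to a common library size after TMM normalization, and differences as log2 fold changes of HOM against WT with their standard error (SE). The targeted gene bore out the labels: Scn2a stood at 477, 371, 477 and 415 CPM in WT replicates 1 to 4 and at 122, 147, 131 and 112 CPM in HOM replicates 1 to 4 (log2 fold change -1.77, SE 0.10, adjusted p = 1.16e-05 by edgeR). Transcripts of glia were abundant although the labels say neuron, with summed CPM of 6 oligodendrocyte markers between 3144 and 5479 in the 8 libraries. WT replicate 4 stood apart in choroid plexus markers, whose 9 genes summed to 1715 CPM there against 146 to 418 CPM in the other WT libraries and 18.5 to 234 CPM in HOM. HOM replicate 4 held 2 counts over 4 Y-linked genes, against 4452 to 5984 in each other library. The number of members called is given with and without these libraries, and so are the values of Slc17a6 and Unc13c.

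More members were below their WT level than above it. The list was made with earlier results of these data known, so its counts are a description and not a test of the pathway. Of the 42, 9 fell in HOM, 1 rose and 32 did not pass (quasi-likelihood test of edgeR, p adjusted over all genes tested, threshold 0.05). The members that fell were Rph3a, Vamp1, Rab3c, Cplx2, Cplx1, Snap25, Sv2b, Napb and Nsf, each at 72.2% to 83.2% of its WT mean, and the member that rose was Syn3, at 128%. Over all genes tested 2.94% were lower and 2.47% were higher by the same rule, 5.4% in either direction (511 lower and 429 higher, or 355 and 539 with upper-quartile scaling, where 8 members fell and 1 rose). Among the 6529 genes whose WT mean was at least that of the lowest member, 5.31% were lower and 2.07% higher. That cut is 31.3 CPM and the member means ran up to 2301 CPM, so these genes are not matched to the members in level. The log2 fold change was below 0 for 33 of the 42 members, with a median of -0.14, against 49.8% of all genes at a median of 0.0013 and 63.6% of the 6529 genes at a median of -0.055. The CPM ranges of the genotypes did not overlap for 11 members, 10 lower and 1 higher in HOM, where 7.47% of all genes were separated downward and 6.63% upward.

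By step of the cycle, 2 of 3 SNARE regulators (both complexins), 2 of 4 SNARE proteins and 2 of 3 disassembly factors fell. So did 2 of 4 genes of the Rab3 group and 1 of 4 vesicle membrane genes. Of 3 synapsins 0 fell and 1 rose. None of 3 calcium sensors, 6 active zone scaffolds, 3 priming factors, 7 endocytic genes or 2 glutamate transporters passed. Of the 21 genes in those 5 steps, 5 were at an unadjusted p under 0.05 with edgeR, and DESeq2 called 1 and limma-voom 0. The share of all genes at that unadjusted p was not computed, so the 5 have no background here. Over all genes tested 6.06% were lower with DESeq2 and 3% with limma-voom. Whether the steps differ from each other was not tested. Step medians of the log2 fold change ran from -0.34 for the 3 SNARE regulators and -0.27 for the 3 disassembly factors to -0.064 for the 7 endocytic genes and 0.038 for the 3 priming factors.

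**Figure D1:**
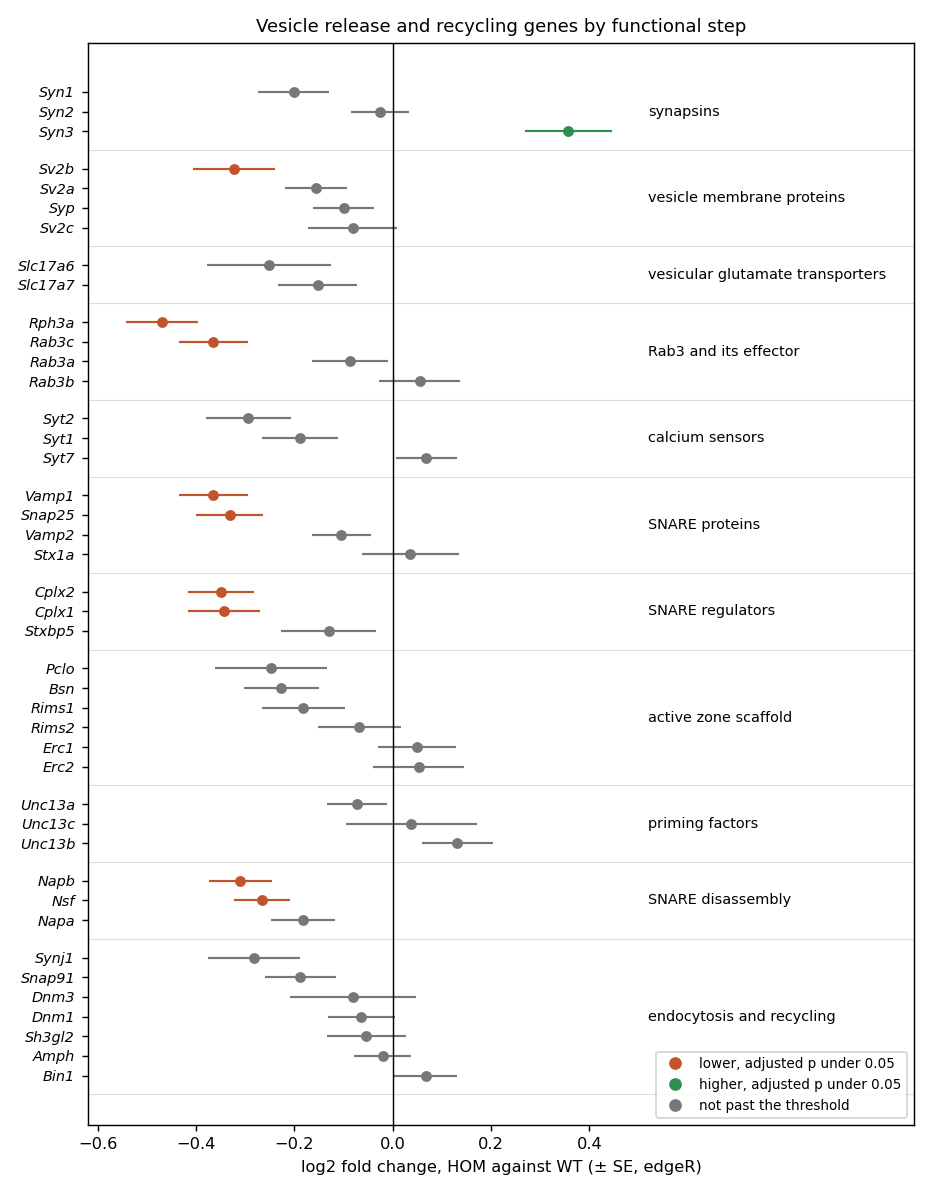
Log2 fold change of HOM against WT on the horizontal axis, with its SE from edgeR as a bar, for each of the 42 genes grouped by functional step. The 9 orange genes fell and the 1 green gene rose, and 33 of the 42 points lie left of 0.

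Promoter windows show the sequence before the start of members that fell together. RefSeq windows on GRCm38.p6 were matched for 36 of the 42 members and for 8 of the 9 that fell, and the 250 bases before each start were searched on both strands, a gene with several starts counting once if any of its windows held the motif. The cyclic AMP response element TGACGTCA was found in 2 of the 36 genes, its shorter core TGACG in 11 and an Egr site, GCGGGGGCG or GCGTGGGCG, in 5. None of the 3 was found in the 8 that fell, against 1.77%, 19.8% and 3.47% of all 27025 genes with a window. The GC box GGGCGG was found in 26 of the 36 and in 4 of the 8 (35.4% of all genes). The E-box CACGTG, added after the windows were seen, was found in 4 and in 2 (6.86% of all genes). TGACGTCA contains TGACG, so those counts overlap. Not all 8 genes have a window just before their annotated start: the RefSeq start lies 68793 bases from the GENCODE start for Cplx2 and 790 bases from it for Rab3c, and 197 of the 250 bases searched for Cplx1 are exonic in GENCODE. The windows below are of 4 members that fell and whose RefSeq start lies at or just inside the GENCODE start, each 5′ to 3′ on the gene's strand and cut before the first annotated exon base, with GC boxes and E-boxes in capitals.
Rph3a, chr5:121010093-121010342, minus strand: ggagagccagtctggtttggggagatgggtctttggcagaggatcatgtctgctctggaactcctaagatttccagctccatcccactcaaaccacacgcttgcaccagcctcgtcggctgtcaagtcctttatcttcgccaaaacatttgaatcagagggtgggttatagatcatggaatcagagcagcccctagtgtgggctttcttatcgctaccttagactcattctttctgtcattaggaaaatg
Sv2b, chr7:75309263-75309512, minus strand: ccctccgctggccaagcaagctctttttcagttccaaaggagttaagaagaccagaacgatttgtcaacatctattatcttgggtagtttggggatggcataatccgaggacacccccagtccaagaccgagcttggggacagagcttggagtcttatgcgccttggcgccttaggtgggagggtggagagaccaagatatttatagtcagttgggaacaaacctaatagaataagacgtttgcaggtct
Vamp1, chr6:125215331-125215550, plus strand: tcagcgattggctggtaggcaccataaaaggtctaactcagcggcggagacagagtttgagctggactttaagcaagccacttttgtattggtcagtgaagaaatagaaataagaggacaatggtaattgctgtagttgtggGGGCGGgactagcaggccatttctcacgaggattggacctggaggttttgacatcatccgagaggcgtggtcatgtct
Nsf, chr11:103954057-103954306, minus strand: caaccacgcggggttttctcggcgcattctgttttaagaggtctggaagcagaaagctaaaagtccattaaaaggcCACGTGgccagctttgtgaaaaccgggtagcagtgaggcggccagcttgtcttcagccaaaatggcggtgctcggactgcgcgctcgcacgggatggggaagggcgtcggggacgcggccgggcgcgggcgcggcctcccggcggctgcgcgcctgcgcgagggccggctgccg
The Rph3a and Sv2b windows shown hold none of the motifs searched, the Vamp1 window holds 1 GC box and the Nsf window 1 E-box. Their GC content was 48.8%, 48.8%, 50.4% and 66.0% over the 250 bases. A match is a description of letters and not a bound site, and the lack of one says only that these letters are not in this window.

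The SNARE proteins form the helical bundle that drives fusion. Snap25, the palmitoylated SNARE of the plasma membrane (ENSMUSG00000027273, chromosome 2 from 136713453 to 136782428, plus strand, GRCm38), stood at 2237, 2273, 2543 and 2151 CPM in WT replicates 1 to 4 and at 1853, 1946, 1773 and 1742 CPM in HOM replicates 1 to 4. Every HOM library was below every WT library, and HOM replicates 3 and 4 were the lowest. The means were 2301 ± 169 and 1828 ± 91.4 CPM (SD, n = 4), a log2 fold change of -0.33 (SE 0.068; adjusted p = 0.021, edgeR). Vamp1, the vesicle SNARE known for its use at fast motor and brainstem synapses and in parvalbumin interneurons (ENSMUSG00000030337, chromosome 6 from 125215551 to 125245964, plus strand), had 109.7, 133, 124 and 132 CPM in WT and 93.6, 96.9, 96.1 and 101 CPM in HOM, replicates in order. Its HOM libraries lay close together, all under the lowest WT library, which was WT replicate 1 (log2 fold change -0.36, SE 0.071, edgeR adjusted p = 0.0173). A stretch of 40.5% of the Vamp1 span is shared with other annotated genes, but only 0.777% of its exonic bases. Vamp2, the main vesicle SNARE of forebrain synapses, ranged from 1024 to 1161 CPM in WT and from 1010 to 1056 CPM in HOM, which overlapped (log2 fold change -0.10, SE 0.061, edgeR adjusted p = 0.326). For Stx1a, the plasma membrane partner of Snap25, the ranges were 246 to 331 and 252 to 317 CPM, at a log2 fold change of 0.036 (SE 0.10).

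Complexins clamp partly assembled SNARE complexes and hold them ready for calcium. Cplx1 (ENSMUSG00000033615, chromosome 5 from 108518554 to 108550024, minus strand) stood at 561, 659, 601 and 573 CPM in WT and 428, 494, 467 and 498 CPM in HOM, replicates 1 to 4 in order. Cplx2 (ENSMUSG00000025867, chromosome 13 from 54371349 to 54383917, plus strand) stood at 1407, 1516, 1572 and 1392 CPM in WT and 1174, 1109, 1093 and 1245 CPM in HOM in the same order. The genotypes were separated at both genes, and the lowest HOM library differed, HOM replicate 1 for Cplx1 and HOM replicate 3 for Cplx2. The log2 fold change of Cplx1 was -0.34 (SE 0.073; adjusted p = 0.0234, edgeR). That of Cplx2 was -0.35 (SE 0.067; adjusted p = 0.0167, edgeR). Stxbp5 encodes tomosyn, which sequesters SNAREs and restrains fusion, and its ranges overlapped at 141 to 173 CPM in WT and 119.9 to 165 CPM in HOM (log2 fold change -0.13, SE 0.10).

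The disassembly factors recycle SNAREs after fusion. Nsf, the ATPase that unwinds the complexes (ENSMUSG00000034187, chromosome 11 from 103821782 to 103954056, minus strand), was at 846, 845, 862 and 831 CPM in WT and stood at 676, 734, 723 and 683 CPM in HOM, replicates in order. All HOM values were below all WT values, with means of 846 ± 12.8 and 704 ± 28.8 CPM (SD, n = 4). The log2 fold change was -0.27 (SE 0.057; adjusted p = 0.024, edgeR). Napb, the brain form of the SNAP adaptor (ENSMUSG00000027438, chromosome 2 from 148693985 to 148732467, minus strand), was at 597, 566, 666 and 602 CPM in WT and 487, 498, 498 and 477 CPM in HOM. The 4 HOM values of Napb lay close together and under the lowest WT value, that of WT replicate 2 (log2 fold change -0.31, SE 0.064, edgeR adjusted p = 0.021). Napa, the ubiquitous adaptor, ranged over 242 to 258 CPM in WT and 207 to 243 CPM in HOM. HOM replicate 4 alone reached into its WT range, and the gene did not pass (log2 fold change -0.18, SE 0.065, edgeR adjusted p = 0.116).

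Rab3 is the vesicle GTPase that recruits vesicles to the active zone, and rabphilin (Rph3a) is an effector that binds Rab3 and calcium. Rph3a (ENSMUSG00000029608, chromosome 5 from 120940499 to 121010092, minus strand) stood at 455, 455, 443 and 422 CPM in WT and at 309.8, 365, 314 and 292 CPM in HOM, replicates 1 to 4 in order. HOM replicate 2 was the highest HOM library and still below WT replicate 4, the lowest WT library. The means of 444 ± 15.4 and 321 ± 31.4 CPM (SD, n = 4) gave a log2 fold change of -0.47 (SE 0.074; adjusted p = 0.00738, edgeR). Rab3c (ENSMUSG00000021700, chromosome 13 from 110054187 to 110280996, minus strand) was at 513, 463, 544 and 545 CPM in WT and 398, 428, 394 and 384 CPM in HOM (log2 fold change -0.36, SE 0.070, edgeR adjusted p = 0.0163). Its groups did not overlap either, with WT replicate 2 and HOM replicate 2 nearest to each other. The main brain isoform gene Rab3a (476 to 569.6 CPM in WT, 449 to 544 CPM in HOM) had a log2 fold change of -0.087 (SE 0.077). For Rab3b the ranges were 48.0 to 58.0 and 51.6 to 62.3 CPM and the log2 fold change 0.055 (SE 0.083). Neither passed.

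The vesicle membrane genes were below WT in the mean throughout, and 1 of 4 passed. SV2 proteins are transporter-like glycoproteins of the vesicle that bind synaptotagmin. Sv2b (ENSMUSG00000053025, chromosome 7 from 75114894 to 75309262, minus strand) had 638, 544, 663 and 549 CPM in WT and 459, 532, 479 and 445 CPM in HOM, replicates in order. The highest HOM value, in HOM replicate 2, was just under the lowest WT value, in WT replicate 2 (log2 fold change -0.32, SE 0.084, edgeR adjusted p = 0.0462). Sv2a, the isoform found at nearly all synapses, had 426, 487, 482 and 455 CPM in WT and 421, 396, 424 and 421 CPM in HOM. Its groups did not overlap but it missed the threshold (log2 fold change -0.16, SE 0.063, edgeR adjusted p = 0.163). Its exact two-sided permutation p was 0.0286, which 70 relabellings cannot go below. Sv2c, a form of basal ganglia and hindbrain, ranged from 62.8 to 76.6 CPM in WT and from 60.6 to 79.2 CPM in HOM. Syp, which encodes the abundant vesicle protein synaptophysin, ranged from 563 to 621 CPM in WT and from 528 to 590.3 CPM in HOM (log2 fold change -0.10, SE 0.061). The vesicular glutamate transporter genes Slc17a7 (log2 fold change -0.15, SE 0.081) and Slc17a6 (-0.25, SE 0.13) did not pass. Slc17a6, the transporter of thalamic and brainstem neurons, was highest in WT replicate 4, at 43.6 CPM against 25.2 to 32.7 CPM in the other 7 libraries. That library, the one of highest choroid plexus level, was also the highest of the WT libraries in the sum of 6 thalamic markers. The sum was 335 CPM there against 250.1 to 257 CPM in the other WT libraries. In HOM replicate 1 the thalamic sum was higher still, at 345 CPM, with Slc17a6 at 30.2 CPM. Most of that sum was Rora, at 252 CPM there and 174 CPM in WT replicate 4, its lowest library. Prkcd, Tcf7l2 and Plekhg1 were highest in WT replicate 4, at 57.6, 23.1 and 46.9 CPM. In HOM replicate 1 they were at 21.6, 15.6 and 24.4 CPM. Lef1 was also highest in WT replicate 4, and Calb2 in HOM replicate 4. A link between Slc17a6 and these markers was not tested. Without WT replicate 4 the log2 fold change of Slc17a6 was -0.10 (SE 0.096), and without both replicates 4 it was -0.045.

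Among the synapsins, which bind actin and vesicles, Syn3 was the member that rose. It stood at 34.4, 30.4, 31.1 and 29.5 CPM in WT and 46.4, 39.7, 35.9 and 38.7 CPM in HOM, replicates 1 to 4 in order. HOM replicate 1 was the highest, and the lowest HOM value, in HOM replicate 3, was above the highest WT value, in WT replicate 1. The log2 fold change was 0.36 (SE 0.088, edgeR adjusted p = 0.0389). Syn3 (ENSMUSG00000059602) spans 443.8 kb on the minus strand of chromosome 10 from 86055125 to 86498896, and Timp3, which lies inside it, has 0 counts in every library. The counts are taken to cover whole gene spans on both strands without shared reads, because nested genes are at 0, so the Syn3 value may hold intron reads and leaves out the shared 16% of its span. The same holds of Syn1, with Timp1 inside, and Syn2, with Timp4 inside, both at 0 counts as well. Syn1, a gene of an abundant vesicle phosphoprotein, was at 748, 733, 756 and 646 CPM in WT and 566, 648, 659 and 635 CPM in HOM. Only WT replicate 4 lay within the HOM range, and the gene did not pass (log2 fold change -0.20, SE 0.073, edgeR adjusted p = 0.122). Syn2 had nearly equal ranges of 506 to 545 CPM in WT and 491 to 543 CPM in HOM (log2 fold change -0.025, SE 0.059).

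**Figure D2:**
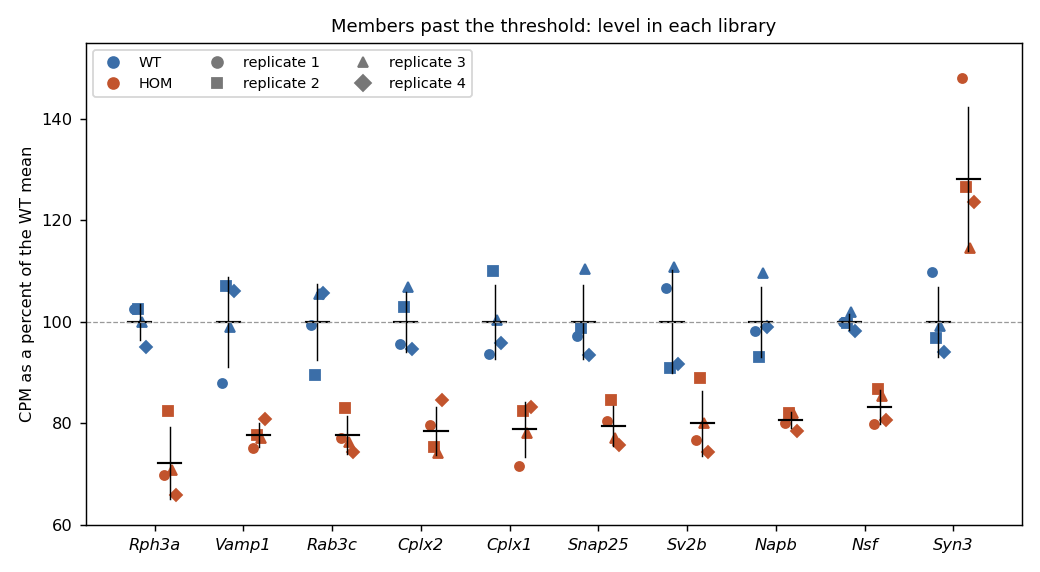
CPM of the 10 members past the threshold, as a percent of the WT mean of each gene (vertical axis, not starting at 0), for WT (blue) and HOM (orange) with the shape of the symbol giving the replicate; the horizontal line is the mean and the vertical line the SD of 4 libraries. In each of the 9 genes on the left all HOM libraries sit below all WT libraries, and for Syn3 all sit above.

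The 9 genes that fell were chosen by this same contrast, so their levels by library are a description. The median level of these genes, as a percent of the WT mean, was 77.1, 82.5, 77.1 and 78.6 in HOM replicates 1 to 4 and 98.2, 99.9, 105 and 95.8 in WT replicates 1 to 4. HOM replicate 2 was the highest HOM library for 5 of the 9 genes and WT replicate 3 the highest WT library for 5 of them. HOM replicate 4 was the lowest HOM library for 5.

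Calcium sensors of release did not pass. Syt1, the fast sensor of most forebrain synapses, stood at 1797, 1611, 1886 and 1570 CPM in WT and 1505, 1608, 1556 and 1355 CPM in HOM, with HOM replicate 2 inside the WT range (log2 fold change -0.19, SE 0.078, edgeR adjusted p = 0.172). Syt2, the fast sensor of inhibitory basket cells and hindbrain synapses, was at 69.1, 77.1, 69.4 and 60.7 CPM in WT and 56.7, 62.8, 50.4 and 55.4 CPM in HOM. HOM replicate 2 and WT replicate 4 crossed, and the gene missed the threshold (log2 fold change -0.29, SE 0.086, edgeR adjusted p = 0.0655), although it passed with DESeq2 (adjusted p = 0.0291) and without HOM replicate 2 (edgeR adjusted p = 0.0444). Syt7, a slower high-affinity sensor of facilitation and asynchronous release, ranged over 529 to 594 CPM in WT and 551 to 609.8 CPM in HOM (log2 fold change 0.069, SE 0.063).

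No active zone or priming gene passed. Bassoon (Bsn) and Piccolo (Pclo) are the giant scaffolds of the active zone, and their log2 fold changes were -0.23 (SE 0.075, edgeR adjusted p = 0.0974) and -0.25 (SE 0.11, edgeR adjusted p = 0.22). Bsn stood at 842, 802, 795 and 694 CPM in WT and 705, 684, 685 and 603 CPM in HOM, where WT replicate 4 fell among the HOM values. Rims1 and Rims2, scaffolds that tether calcium channels, had -0.18 (SE 0.084) and -0.068 (SE 0.084). The ELKS scaffold genes Erc1 (0.049, SE 0.079) and Erc2 (0.053, SE 0.092) and the priming genes Unc13a (-0.073, SE 0.061), Unc13b (0.13, SE 0.072) and Unc13c (0.038, SE 0.13) lay near 0 on the log2 scale. Unc13c was at 88.4 CPM in WT replicate 4 against 57.8 to 82.0 CPM in the other 7 libraries, and its log2 fold change was 0.19 (SE 0.10) without that library and 0.27 without both replicates 4. None of these 5 had an unadjusted p under 0.05 with edgeR, and DESeq2 and limma-voom called none.

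No endocytic member passed. Synj1, the phosphatase that strips clathrin coats, had the lowest of these fold changes, with 459.5, 395, 468 and 423 CPM in WT and 347, 404, 386 and 298 CPM in HOM. HOM replicate 2 lay above WT replicate 2 (log2 fold change -0.28, SE 0.094, edgeR adjusted p = 0.0979). Snap91, the clathrin adaptor AP180 of nerve terminals, was at 414 to 471 CPM in WT and 365 to 424 CPM in HOM (-0.19, SE 0.072). The fission GTPase genes Dnm1 (-0.064, SE 0.069) and Dnm3 (-0.081, SE 0.13) and the membrane-bending genes Sh3gl2 (-0.054, SE 0.081), Amph (-0.020, SE 0.058) and Bin1 (0.068, SE 0.064) had log2 fold changes between -0.081 and 0.068. Exonic bases shared with other genes made up 68.2% of Dnm3 and 36.6% of Sh3gl2, the highest shares among the members, so their values are uncertain. The share was 29.6% for Erc1, 27.2% for Syp, 26.8% for Syn2 and 19.5% for Pclo, and the same limit holds for these.

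The rest of the pathway was covered by a list, also made with earlier results of these data known, of 90 further genes grouped by function. Of these, 1 symbol was not matched, 5 did not pass the filter, and 84 were tested. In HOM 2 fell, 2 rose and 80 missed the threshold. The median of their log2 fold changes was -0.072, and 53 of the 84 were below 0. Of all genes 49.8% were below 0, and of the 6529 genes above 63.6%. The calls of 2 and 2 are near the shares of all genes, 2.94% lower and 2.47% higher. CPM ranges did not overlap for 11 of the 84 downward and 6 upward, against 7.47% and 6.63% of all genes. Synj2, the second synaptojanin, went from 119, 105, 123 and 116 CPM in WT to 96.1, 93.9, 92.0 and 80.6 CPM in HOM (-0.35, SE 0.073, edgeR adjusted p = 0.0215). Ap2b1, the beta subunit of the AP-2 clathrin adaptor, went from 389 ± 13.6 to 332 ± 8.41 CPM (SD, n = 4, -0.23, SE 0.057, edgeR adjusted p = 0.0409). Both endocytic genes had groups that did not overlap. Stx2, a syntaxin found widely outside neurons, rose from 25.7, 22.8, 22.8 and 23.3 to 30.6, 27.6, 28.3 and 29.4 CPM (0.29, SE 0.073, edgeR adjusted p = 0.0399), and Syt17 rose from 82.7 ± 5.28 to 100.2 ± 7.88 CPM (SD, n = 4, 0.28, SE 0.074, edgeR adjusted p = 0.0491). The ranges of Syt17 overlapped. Slc32a1, the vesicular GABA transporter, had -0.10 (SE 0.10).

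**Figure D3:**
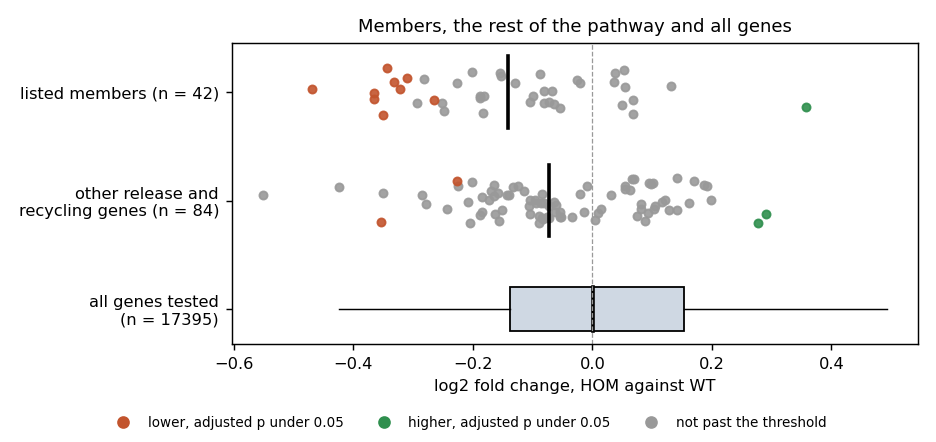
Log2 fold change of HOM against WT for the 42 members, the 84 other release and recycling genes tested and all 17395 genes (box: quartiles; whiskers: the central 90% of genes; thick line: median). The member median lies at -0.14, that of the other pathway genes at -0.072 and that of all genes at 0.0013.

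Ratios between family members give the balance of isoforms in each library and do not depend on the scaling of that library. Of 24 pairs compared, 7 had log2 ratios whose ranges did not overlap between genotypes (29.2%), each with p = 0.0286 by an exact two-sided permutation test and an adjusted p of 0.098 over the 24 pairs. None therefore passed after adjustment (7 at an unadjusted p under 0.05). With 70 relabellings p cannot go below 0.0286, so with 7 separated pairs among 24 none could have passed. The lack of a pass therefore says nothing about these pairs. Pairs share genes, so the 7 are not independent. No share over other pairs of genes was computed, so the 7 of 24 have no background to be read against. The ratio of Syn1 to Syn3 changed most: its log2 values were 4.44, 4.59, 4.60 and 4.45 in WT replicates 1 to 4 and 3.61, 4.03, 4.20 and 4.03 in HOM replicates 1 to 4, a difference of -0.55. The ratio of Syn2 to Syn3 was lower by a difference of -0.38. For Vamp1 to Vamp2 the WT libraries had a log2 ratio of -3.14 ± 0.10 and the HOM libraries of -3.40 ± 0.028 (SD, n = 4). For Syt2 to Syt7 it was -3.02 ± 0.078 and -3.38 ± 0.19. The pairs Unc13a to Unc13b (-0.21), Rab3a to Rab3b (-0.14) and Rims1 to Rims2 (-0.12) differed by less and still did not overlap, although no gene of these 3 pairs passed alone. The log2 ratio of Cplx1 to Cplx2 differed by 0.0071 between genotypes, with ranges that overlapped. The ratio of Rab3b to Rab3c was higher in HOM by 0.42, but WT replicate 2 lay within the HOM range. A ratio shows unequal change of its pair and not which member moved.

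**Figure D4:**
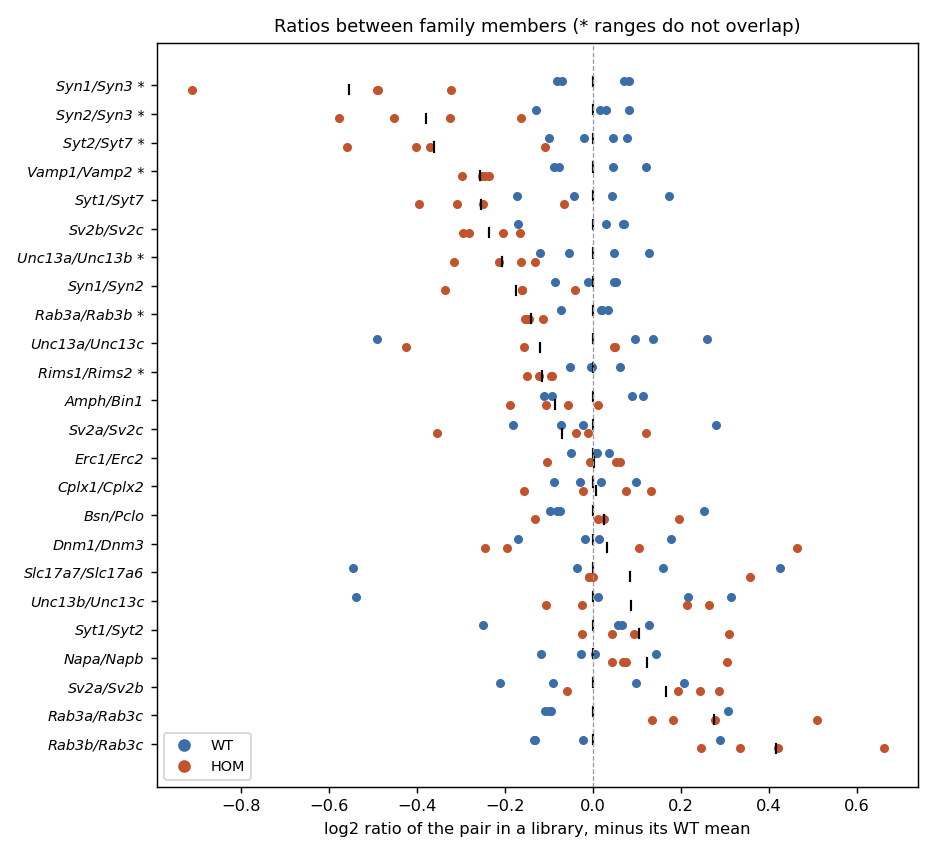
Log2 ratio of 2 family members in each library, minus the WT mean of that ratio (horizontal axis), for 24 pairs, with WT in blue, HOM in orange and group means as short black lines. The 7 starred pairs do not overlap, with Syn1/Syn3 (-0.55) and Syn2/Syn3 (-0.38) farthest to the left.

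Some markers of neurons and of other cell types fell in HOM beside the members. In this bulk RNA, fewer cells of a type and less RNA per cell cannot be told apart. Of 5 neuronal markers tested 2 fell, the neurofilament genes Nefm (log2 fold change -0.51, SE 0.075) and Nefh (-0.39, SE 0.083). The summed level of the list was 2722 to 2876 CPM in WT and 2369 to 2649 CPM in HOM, while Rbfox3, the gene of NeuN, had a log2 fold change of 0.10 (SE 0.10). Tubb3 and Nefl, 2 other listed markers, had 0 counts and are nested genes. Of 7 interneuron markers 1 fell, the GABA synthesis gene Gad1 (-0.48, SE 0.069), and their sum was 1164 to 1302 CPM in WT and 1001 to 1102 CPM in HOM. Of 5 tested markers of fast-spiking interneurons none passed with edgeR, 2 being at an unadjusted p under 0.05. The sum was 526 to 554 CPM in WT and 443 to 485 CPM in HOM, with Pvalb at 36.0 ± 5.82 and 30.3 ± 2.94 CPM (SD, n = 4) and Cox6a2, a nested gene, at 0. Of 6 markers of excitatory neurons 1 fell, Neurod6 (-0.29, SE 0.077), and the sums of 5092 to 5993 and 4457 to 5310 CPM overlapped. Of 9 choroid plexus markers 4 fell, with the sums given above, and none was at 0. Of 8 striatal markers none passed with edgeR and none was at an unadjusted p under 0.05, at sums of 820.1 to 934 CPM in WT and 732 to 1073 CPM in HOM. Of 6 oligodendrocyte markers none passed with edgeR and 6 were at an unadjusted p under 0.05, with sums of 3648 to 5479 CPM in WT and 3144 to 3843 CPM in HOM. Of 5 tested astrocyte markers 1 fell, Aqp4 (-0.40, SE 0.10), at sums of 4114 to 4429 and 3198 to 4040 CPM, and of 5 tested microglial markers 1 rose, C1qa (0.44, SE 0.12), at sums of 179 to 207 and 205 to 224 CPM. Of 5 endothelial markers 2 fell, Flt1 (-0.47, SE 0.11) and Cdh5 (-0.52, SE 0.13), at sums of 136 to 187 and 105 to 139 CPM. Of 5 hippocampal markers 1 fell, Fibcd1 (-0.57, SE 0.14), with sums of 182 to 219 and 153 to 179 CPM. The 4 at an unadjusted p under 0.05 were Fibcd1, Wfs1 (-0.20) and Dsp (-1.94), lower in HOM, and Spink8 (0.40), higher. Dsp was at 8.27 CPM in WT replicate 4 against 0.23 to 2.14 CPM in the other libraries. The sums of the hippocampal, neuronal, interneuron, fast-spiking and astrocyte lists did not overlap between genotypes, and those of the other lists did. Such a sum is set mainly by its most abundant genes, such as Slc1a2 (3317 CPM in the WT mean) for astrocytes and Wfs1 (152 CPM) for hippocampus. It does not show that each gene of a list moved. Rbfox3, Tac1 (0.25) and Spink8 were above 0, and the ranges of Gad2, Pvalb, Sst, Vip and Lhx6 overlapped. Of 6 thalamic markers none passed with edgeR, at sums of 250.1 to 335 and 282 to 345 CPM. The 1 at an unadjusted p under 0.05 was Rora, higher in HOM (0.24, SE 0.085). Calb1, the 1 cerebellar marker tested, did not pass (unadjusted p under 0.05), with Pcp2 and Cbln1, nested genes, at 0. No share of all genes at an unadjusted p under 0.05 was computed to set beside these marker counts. The part of these markers in the vesicle results was not tested.

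The calls depended on single libraries. Removing 1 library at a time left 7, 9, 1 and 8 members that fell for WT replicates 1 to 4, and 1, 10, 1 and 7 for HOM replicates 1 to 4. Calls over all genes moved with them, at 262, 598, 114 and 284 that fell for WT replicates 1 to 4 and 124, 649, 89 and 258 for HOM replicates 1 to 4, or 0.505% to 3.69% of the genes tested. Removing both replicates 4 left 4 members and 200 genes in all (1.15%). The median log2 fold change of the 42 stayed between -0.15 and -0.12 in these 9 fits. Rph3a passed in all 8 of these single removals (highest edgeR adjusted p = 0.0473). The calls of Snap25, Vamp1, Cplx1, Cplx2, Napb and Rab3c were each lost when WT replicate 3 was removed, and likewise when HOM replicate 1 or 3 was. That of Nsf was lost in these removals and in those of WT replicate 1 and HOM replicate 4. Sv2b passed in 2 of the 8 removals, those of WT replicate 2 and HOM replicate 2, and Syn3 in 2, those of WT replicate 1 and HOM replicate 2. Of the other pathway genes, Synj2 was lost in the same 3 removals as Snap25. Stx2 passed in 2 removals, Ap2b1 in 1 and Syt17 in 1. With the mean choroid plexus level as a covariate no member passed with edgeR, while the median log2 fold change of the 42 was -0.19, and 22 genes fell and 7 rose over the whole table. That level was itself lower in HOM, at a mean log2 CPM of 1.59 to 4.71 in WT and -0.17 to 2.01 in HOM, so this covariate and genotype cannot be fully told apart.

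Gene length and position were properties that the choice of genes did not use. Of the 14 members with the shortest spans (3.90 to 49.1 kb) 4 fell and 1 was above 0 in HOM. Of the 14 of middle span (58.5 to 178 kb) 3 fell and 3 were above 0. Of the 14 with the longest (194 to 856 kb) 2 fell, 1 rose and 5 were above 0. The median log2 fold changes were -0.15, -0.19 and -0.061 from the shortest to the longest, so they did not run in order of length. Among all protein-coding genes tested of the same span classes, 3.16% of the shortest were lower and 1.90% higher, 4.16% of the middle class were lower and 2.42% higher, and 2.81% of the longest were lower and 6.79% higher. Across the 42 genes, which are not independent replicates, the fold change and the log10 span had a Pearson correlation of 0.247 and a Spearman correlation of 0.246, and the fold change and the log10 WT mean CPM -0.439 and -0.42. With trends of span and exonic length removed from each library, 13 members fell and 1 rose, while over all genes 872 fell (5.01%, against 2.94% without this step) and 705 rose. The additional members, called by edgeR, were Syt1 (log2 fold change -0.30), Pclo (-0.26), Rims1 (-0.31) and Synj1 (-0.24). Snap25, Napb and Dnm1 lie on chromosome 2 with Scn2a, at distances of 70.9, 82.9 and 33.3 Mb.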

How the data were processed

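The authors deposited raw read counts for each Ensembl gene as whole numbers, 1 column a sample. The submitters' processing notes name FastQC 0.11.3, STAR, featureCounts, edgeR and the build GRCm38. How strand was treated, the annotation and other versions were not given in the sources used here; per the labels' protocols the libraries are stranded and paired-end. Symbols and positions came from GENCODE M21 (GRCm38), which held 54409 of 54446 identifiers. Of 1263 protein-coding genes nested in another gene 1258 were at 0 throughout, so counts are taken to cover whole gene spans on both strands, without shared reads.

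The count test was edgeR 4.0.16 under R 4.3.3 (glmQLFit, glmQLFTest) with TMM scaling, filterByExpr defaults (about 10 counts in 4 libraries, 15 in all) and Benjamini-Hochberg adjustment over 17395 genes at 0.05. Log2 CPM used a prior count of 2. The test was checked on simulated counts. Members and gene lists were chosen with earlier results of these data known. Named genes were all members, with each library's CPM where a gene passed or its groups did not overlap, and other pathway genes that passed; further values of members and markers were added after they were seen. Alternatives were RLE and upper-quartile scaling, no filter, 1 CPM in 4 libraries, DESeq2 1.42.0, limma-voom (limma 3.58.1), the replicate number as a block, a choroid plexus covariate, smooth trends of span and exonic length removed (mgcv 1.9.3, GC content not used here) and each library left out. Removing both replicates 4 was added after seeing the data. All library pairs differed by more than sampling noise (chi-square per degree of freedom at least 7.12).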

Additional observations from a re-analysis of the deposited data

Results flagged for a closer look

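In 86 groups of 4 libraries (each member and Scn2a in each genotype) the gap from the extreme library to the next was divided by the range. In 3 groups this was above Dixon's critical value, where chance gives about 4.3. Sv2a stood at 395.7 CPM in HOM replicate 2, with the other HOM libraries between 420.5 and 424 CPM. Sv2c stood at 62.8 CPM in WT replicate 2, with the other WT libraries between 74.95 and 76.6 CPM. Amph stood at 244 CPM in HOM replicate 3, with the other HOM libraries between 234 and 235 CPM.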

How the results depend on the processing

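The lowest count of a member in a library was 768, and no setting varied the depth. Counts of members that fell and rose were 9 and 1 as reported. They were 8 or 9 and 1 with RLE scaling, upper-quartile scaling, no filter, the 1 CPM filter and limma-voom, and 10 and 1 with DESeq2. All 9 members that fell were below 0 in every setting run, and Syn3 was above 0. Over all genes DESeq2 called 1054 lower and 819 higher, and the span and length trends 872 and 705. Of the other pathway genes 1 was lower with upper-quartile scaling, 9 were lower with DESeq2, 1 was higher with limma-voom, and 6 were lower and 4 higher with the trends removed. With the choroid plexus covariate 22 genes were lower and 7 higher over the whole table, with 0 and 0 of the members and 0 and 0 of the other pathway genes. Without both replicates 4 the counts were 200 and 135 over all genes, 4 and 0 of the members and 0 and 0 of the other pathway genes.

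Samples of the 2 genotypes share only a replicate number: same-numbered libraries had correlated deviations of 0.0473, -0.196, -0.00701 and 0.0275, and 0 matched best with its own number. With the replicate number as a block, 195 genes were lower and 169 higher, members 3 (Rph3a, Vamp1 and Cplx1) and 0, and other pathway genes 0 and 0.

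Leaving out 1 library at a time gave 89 to 649 lower and 67 to 538 higher genes, 1 to 10 lower and 0 to 1 higher members, 0 to 4 lower and 0 to 2 higher other pathway genes, and 7 to 11 paralog pairs that did not overlap (11 without WT replicate 2).

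Signs turned only for members that had not passed. Values on the log2 scale were 0.0072 for Syn2 and 0.013 for Amph with upper-quartile scaling. With the covariate they were 0.13 for Slc17a6, -0.070 for Rab3b and -0.090 for Stx1a. With the trends removed they were -0.14 for Erc2, 0.0086 for Unc13a and -0.082 for Unc13c. With 1 library left out at a time, the values ran from -0.048 to 0.013 for Syn2, -0.048 to 0.0014 for Amph, -0.039 to 0.19 for Unc13c, -0.018 to 0.13 for Stx1a, -0.013 to 0.13 for Erc2, -0.12 to 0.0021 for Rims2, -0.18 to 0.054 for Dnm3 and -0.10 to 0.017 for Sh3gl2. Without both replicates 4, Rab3b was at -0.021, Stx1a at -0.068 and Dnm3 at 0.0052. The causes were not tested.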
